A study of Mus musculus with 2 samples.

Results

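The Vmn2r genes encode the type 2 vomeronasal receptors, and they were described here in the accessible chromatin of undifferentiated mouse embryonic stem cells (mESCs), a cell type that is not known to use them. Members were the protein-coding genes of chromosomes 1 to 19 in the GENCODE annotation whose names begin with Vmn2r, which gave 121 genes among 20807 protein-coding genes. The rule left out 116 Vmn2r entries of other biotypes and 1 protein-coding member on chromosome X. It kept Vmn2r-ps159 and Vmn2r-ps130, which carry a pseudogene name but are annotated as protein-coding. The cells were EHMT2-dTAG mESCs of a BL6/129 hybrid background, made from KH2 cells with C57BL/6J and 129S1 parents. In both samples the endogenous Ehmt2 gene, which encodes an H3K9 methyltransferase, carried a degron tag and an mCherry reporter, and both had received DMSO for 24 h without degrader. There were 2 samples, each from a separate clone with 50000 cells and 3 technical replicates, and the peaks had been called on both samples merged. No second condition and no value per clone entered the comparison, so each count below is set beside the same count over all protein-coding genes and no test was run.

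Type 2 vomeronasal receptors are class C G protein-coupled receptors with a long extracellular domain that binds peptides and proteins such as pheromones. They act in the basal sensory neurons of the vomeronasal organ, where they signal through the G protein alpha subunit Gnao1 and the channel Trpc2. Vmn2r1 to Vmn2r7 belong to a subfamily whose receptors are present in many basal neurons beside a receptor of the larger subfamilies. ATAC-seq maps accessible chromatin by the insertion of Tn5 transposase, and at active or poised CpG-rich promoters it usually gives a peak over the transcription start. The labelled cell type was checked at its marker genes. Of 10 mESC markers, 9 had a peak within 2000 bp of the start, with Esrrb as the exception. Such a peak was present at 71.2% of all protein-coding genes, at 4 of 5 markers of vomeronasal sensory neurons and at 5 of 7 markers of fibroblast feeder cells, so a start peak marks an accessible start and does not separate the cell types. Per the study's methods, mESCs were grown on feeder fibroblasts of mouse embryos. The part of feeder nuclei in the peaks was not tested.

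The sequences before the starts show how CpG-poor these promoters are. The 250 bases before the RefSeq start (GRCm38.p6) are printed 5′ to 3′ on the strand of each gene, with CG dinucleotides in capitals. Vmn2r12 (chr5:109097865-109098114, minus strand) had the strongest peak near its start, Vmn2r1 (chr3:64081392-64081641, plus strand) stands for the co-expressed subfamily, and Vmn2r37 (chr7:9223654-9223903, minus strand) lay farthest from any peak. B2m (chr2:122147437-122147686, plus strand), the light chain of the MHC class I molecules found with these receptors at the neuron surface, is shown because its start was on a peak.
Vmn2r12: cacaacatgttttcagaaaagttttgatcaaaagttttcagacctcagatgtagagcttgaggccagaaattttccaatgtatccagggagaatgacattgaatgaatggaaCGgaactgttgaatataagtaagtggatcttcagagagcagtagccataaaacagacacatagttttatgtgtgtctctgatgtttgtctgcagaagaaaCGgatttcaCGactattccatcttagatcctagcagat
Vmn2r1: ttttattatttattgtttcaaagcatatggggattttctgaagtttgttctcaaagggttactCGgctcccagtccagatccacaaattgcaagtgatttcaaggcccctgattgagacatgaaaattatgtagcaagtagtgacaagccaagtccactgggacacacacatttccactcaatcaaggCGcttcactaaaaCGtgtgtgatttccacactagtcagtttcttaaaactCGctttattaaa
Vmn2r37: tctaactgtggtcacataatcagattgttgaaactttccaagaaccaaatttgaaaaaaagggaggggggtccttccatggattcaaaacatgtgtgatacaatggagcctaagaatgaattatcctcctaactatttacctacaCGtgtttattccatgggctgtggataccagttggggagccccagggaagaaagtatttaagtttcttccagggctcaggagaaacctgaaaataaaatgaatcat
B2m: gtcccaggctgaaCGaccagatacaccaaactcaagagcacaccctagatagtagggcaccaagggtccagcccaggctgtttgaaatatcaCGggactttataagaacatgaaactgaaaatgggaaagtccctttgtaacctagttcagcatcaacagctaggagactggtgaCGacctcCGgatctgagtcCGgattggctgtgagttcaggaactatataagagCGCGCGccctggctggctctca
The Vmn2r stretches held 3, 4 and 1 CG dinucleotides and the B2m stretch held 8. Over the 300-base RefSeq promoters, from 250 bases before to 50 after the start, the median was 1 CG dinucleotide (range 0 to 4) in the 114 members that RefSeq lists and 15 in all 15687 promoters. No CG dinucleotide was present in 34 of the 114 members.

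Few Vmn2r starts were near accessible chromatin. Within 2000 bp of the start, upstream or downstream, a peak was listed for 5 of 121 members, or 4.13%, beside a background of 71.2% (14821 of 20807 protein-coding genes). None of the 121 GENCODE starts lay on a peak, whereas 12539 protein-coding starts (60.3%) did, and no member had a peak within 500 bp. In 11 of the 114 members that RefSeq lists, the RefSeq start lay more than 2000 bp from the GENCODE start. The median distance from the start to the nearest peak was 19546 bp (range 774 to 753035 bp) in members and 0 bp over all protein-coding genes. For 90 members (74.4%) the nearest peak was more than 10000 bp away, beside 14.9% of all protein-coding genes. The plot of summits by distance shows the same in 1-kb bins. The first 1000 bp after the start held a summit in 0 of 121 members and in 36.9% of all protein-coding genes. Between 2000 and 10000 bp from the start, the bins of members held a summit in 0.826% to 6.61% of genes, and those of all protein-coding genes in 4.06% to 6.72%.

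**Figure D1:**
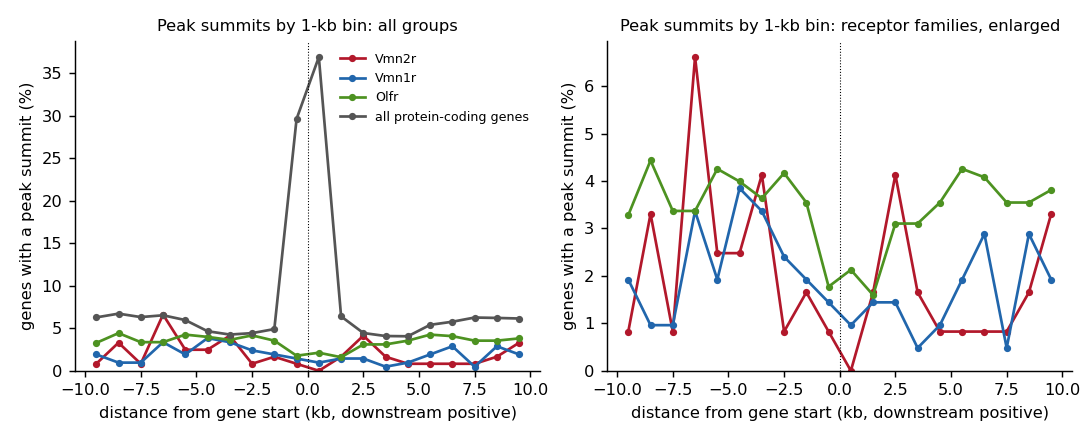
Percent of genes with a peak summit (vertical axis) in 1-kb bins of distance from the gene start (horizontal axis, kb, downstream positive), for Vmn2r, Vmn1r, Olfr and all protein-coding genes on the left and for the 3 receptor families enlarged on the right. All protein-coding genes reach 36.9% in the first kb after the start, where Vmn2r genes are at 0%.

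The 5 peaks near Vmn2r starts were mostly weak beside those at other protein-coding starts. Their strength is given as the fold enrichment, in which 1 is added to the number of fragments covering the summit and the result is divided by the local background, to which 1 is also added, and as the number of fragments over the summit, with an exact 95% Poisson interval that covers counting error only. Vmn2r12 on chromosome 5 had the strongest, at chr5:109096247-109097003, with a fold enrichment of 9.57, 21 fragments (13.0 to 32.1) and a −log10 q-value of 16.2. Its summit lay in an intron, 1302 bp after the start. Vmn2r44 had a peak at chr7:8384487-8385514 with a fold enrichment of 4.48 and 11 fragments (5.49 to 19.7), with the summit 1444 bp before the start. Those of the neighbours Vmn2r86 and Vmn2r85 on chromosome 10 had fold enrichments of 4.16 (8 fragments, 3.45 to 15.8) and 3.48 (7 fragments, 2.81 to 14.4). The Vmn2r86 peak, chr10:130457213-130457574, had its summit 1361 bp before the start, and the Vmn2r85 peak, chr10:130427782-130428281, had its summit in an intron 1675 bp after the start. Vmn2r69 had the weakest, at chr7:85416694-85416929, with a fold enrichment of 3.24 and 6 fragments (2.2 to 13.1), 946 bp before the start. Only the Vmn2r12 peak passed a −log10 q-value of 5, beside 60.9% of all protein-coding genes with such a peak. The intervals of all 5 fragment numbers overlapped. The median over the 5 was 8 fragments, beside 27 for the 15217 peaks at protein-coding starts and 9 for all autosomal peaks. Taken per gene with a start peak, the median was 9 fragments in Vmn1r genes and 7 in Olfr genes.

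The 81 bases centred on each of these summits are printed on the plus strand of GRCm38.p6 to show how much of them is repeat, with capitals for bases outside the soft-masked repeats and lower case for soft-masked bases.
Vmn2r12, chr5:109096608-109096688: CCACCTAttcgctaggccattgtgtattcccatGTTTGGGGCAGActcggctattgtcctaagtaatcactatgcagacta
Vmn2r44, chr7:8384737-8384817: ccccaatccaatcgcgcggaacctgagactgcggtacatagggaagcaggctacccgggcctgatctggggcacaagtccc
Vmn2r86, chr10:130457371-130457451: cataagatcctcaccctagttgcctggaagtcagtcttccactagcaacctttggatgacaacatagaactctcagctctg
Vmn2r85, chr10:130427988-130428068: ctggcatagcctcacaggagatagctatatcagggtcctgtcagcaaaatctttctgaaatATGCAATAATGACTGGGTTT
Vmn2r69, chr7:85416826-85416906: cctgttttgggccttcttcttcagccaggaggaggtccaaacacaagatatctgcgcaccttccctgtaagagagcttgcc
The summit base was soft-masked in 4 of the 5, all but that of Vmn2r12. Over the 501 bp around the summit the soft-masked share was 65.7% at Vmn2r12, 83.8% at Vmn2r44, 80.8% at Vmn2r86, 90.8% at Vmn2r85 and 100% at Vmn2r69. The summits of all peaks at protein-coding starts were soft-masked in 6.48%. Around the Vmn2r12, Vmn2r86 and Vmn2r85 summits no 100-base word had another exact copy in the genome. Around the Vmn2r44 and Vmn2r69 summits 17.1% and 9.76% of words had one.

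More members had a peak over the gene body than near the start, and the body of every member was longer than the start window. A peak overlapped the gene body of 50 of 121 members, or 41.3%, beside a background of 79.4% (16526 genes). A single peak was present in 29 members, 2 in 17, 3 in 2 and 4 in Vmn2r7 and Vmn2r24, the other 71 having none. Both a start peak and a body peak were present in 4 members, a body peak alone in 46, and neither in 70. The median member was 27146 bp long (range 8397 to 159722 bp) and the median protein-coding gene 17629 bp. Per length, member bodies held 20.8 peaks per Mb and all protein-coding bodies 59.6, while chromosomes 1 to 19 held 46.2. The difference was smaller away from the starts. With the first 2000 bp of each gene left out, 49 members (40.5%) and 54.0% of all protein-coding genes had a body peak. Genes of 2000 bp or less stayed in that total as genes without one, which lowers the background only, since no member is so short. Away from every protein-coding start, member bodies held 21.8 summits per Mb and all protein-coding bodies 45.7.

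**Figure D2:**
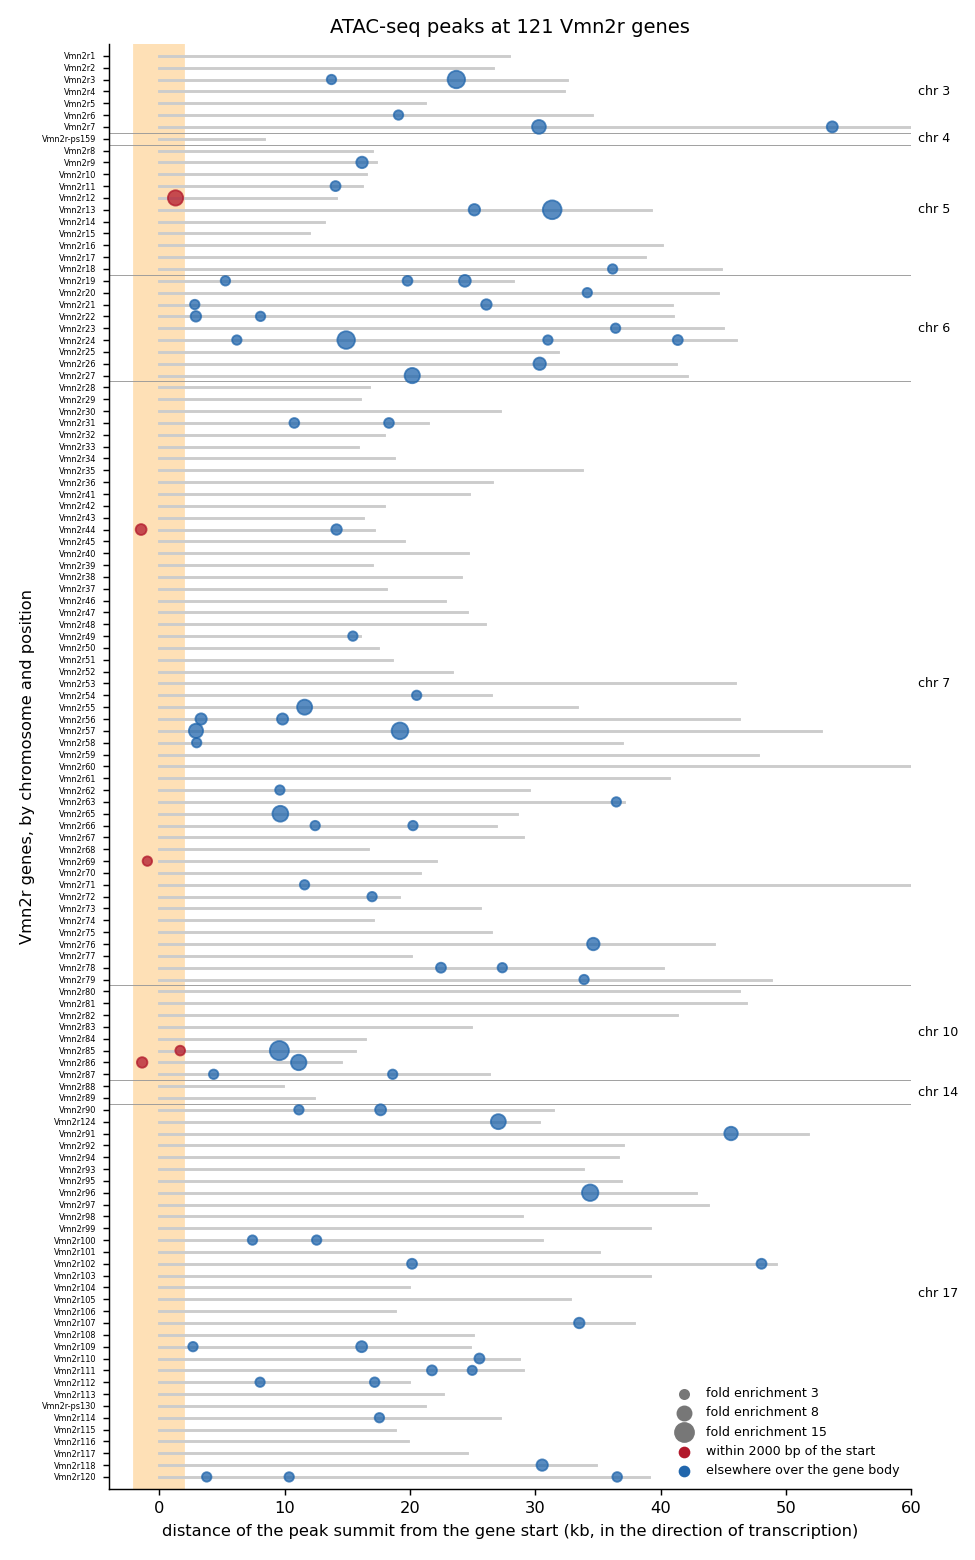
Peaks at the 121 Vmn2r genes, 1 row per gene in order of chromosome and position, by distance of the summit from the gene start (horizontal axis, kb, in the direction of transcription). Grey lines are gene bodies drawn up to 60 kb (3 members are longer, and 2 peaks of Vmn2r7 lie farther), point size is fold enrichment, red points lie in the shaded 2000 bp on either side of the start and blue points elsewhere. The 5 red points stand against 50 genes with a body peak, but every gene body is longer than the shaded window.

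Most body peaks of Vmn2r genes were of low strength, with medians a little below those of all autosomal peaks. Among the 77 distinct body peaks, the fold enrichment had a median of 3.70 (range 3.07 to 15.3). The median was 4.16 for the 57155 body peaks of all protein-coding genes, which include peaks at starts, and 3.95 for all autosomal peaks. The number of fragments over the summit had a median of 7 (range 6 to 107), beside 10 and 9 in those sets. Of the 77, 31 had 6, the fewest that any listed peak had. A −log10 q-value of at least 10 was reached by 15 of 77 (19.5%), beside 27.4% and 21.8%. The summit lay in an intron in 54 and in an exon in 23, of which 5 were in coding sequence. Exons made up 25.6% of the bases of the members. Soft-masked sequence lay under the summit in 40 of 77 (51.9%), beside 17.3% of all protein-coding body peaks and 26.7% of all 113777 autosomal peaks. Member bodies were themselves more masked, with a median of 40.1% beside 22.4% over all protein-coding bodies. Elsewhere between members of the same gene clusters 168 of 259 summits were soft-masked. In Vmn2r pseudogene bodies there 11 of 20 were, and near other protein-coding starts 4 of 25.

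A fold enrichment of at least 7, a limit set after the values were seen, was reached by 15 of the 80 member peaks (18.8%) in 14 genes and by 18.7% of autosomal peaks. Vmn2r85 had the strongest of all, at chr10:130419583-130420600 in an intron 9584 bp after the start, with a fold enrichment of 15.3, a −log10 q-value of 87.6 and 107 fragments (87.7 to 129). Its interval lay above those of all other member peaks. Vmn2r3 followed by fragments, with 65 (50.2 to 82.8) at a fold enrichment of 12.7 in an exon outside the coding sequence. Vmn2r27 had 53 fragments (39.7 to 69.3) at a fold enrichment of 9.54. Fold enrichments of 14.7, 12.9, 11.5 and 11.2 were present at Vmn2r13 (42 fragments, 30.3 to 56.8), Vmn2r24, Vmn2r57 and Vmn2r96 (39 fragments each, 27.7 to 53.3). These counts overlapped in their intervals, so their order was not resolved at this depth.

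The sequence under the strong peaks varied, as shown by the 81 bases around the summits in introns of Vmn2r85, Vmn2r13 and Vmn2r24, again with capitals outside soft-masked repeats and on the plus strand of GRCm38.p6.
Vmn2r85, chr10:130420079-130420159: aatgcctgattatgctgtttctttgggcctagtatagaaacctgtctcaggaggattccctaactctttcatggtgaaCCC
Vmn2r13, chr5:109160813-109160893: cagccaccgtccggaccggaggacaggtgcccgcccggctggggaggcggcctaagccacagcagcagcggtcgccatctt
Vmn2r24, chr6:123793751-123793831: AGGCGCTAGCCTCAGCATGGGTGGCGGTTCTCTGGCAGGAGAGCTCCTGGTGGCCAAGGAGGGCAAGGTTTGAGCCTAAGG
The 501 bp at Vmn2r85 were 83.6% soft-masked with no 100-base word in another exact copy. At Vmn2r13 they were 96.8% soft-masked with 68.3% of words copied, up to 1452 times in the genome, and the printed stretch held 8 CG dinucleotides. At Vmn2r24 they were 4.79% soft-masked with no copied word. Over the 15 strong peaks, 11 summits were soft-masked, beside 28.4% of the 21230 autosomal peaks of that strength. No word had another copy at 7 of the 15, and more than 50% of words did at 5, those of Vmn2r7, Vmn2r13, Vmn2r27, Vmn2r57 and Vmn2r96. At Vmn2r57 a word had a median of 623 copies and at Vmn2r27 132. No strong peak had a copied word that lay in another Vmn2r gene or pseudogene among words with up to 30 copies. Since the authors wrote a read with several best locations at 1 of them at random, the part of such reads in the copied peaks was not tested.

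Members differed from other genes in the sequence around the start. The CpG observed-to-expected ratio within 500 bp of the start had a median of 0.101 in members, with a highest value of 0.277, and 0.568 over all protein-coding genes. The GC content there had medians of 36.5% and 55.0%. Soft-masked repeats covered a median of 25.7% of the 2000 bp on either side of the start (range 7.47% to 53.4%) and 39.4% of the locus, taken from 2000 bp before the start to the end of the gene (range 18.9% to 69.3%). Over all protein-coding genes these medians were 19% and 23.4%. The most masked loci were those of Vmn2r87 (69.3%), Vmn2r58 (65.96%) and Vmn2r35 (64.1%), and the least masked were those of Vmn2r9 (18.9%), Vmn2r-ps159 (22.9%) and Vmn2r88 (24.2%). Body peaks were listed at Vmn2r87 (2, both with 6 fragments), Vmn2r58 (1, with 6 fragments) and Vmn2r9 (1, with 10 fragments), and none at the other 3.

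The share with a start peak was lower in members than in other protein-coding genes in every class of CpG ratio, of repeat content and of sequence duplication that held members. With a CpG ratio under 0.2, a start peak was present in 4 of 109 members (3.67%) and in 19.8% of 4590 other genes. From 0.2 to 0.4 it was present in 1 of 12 members and in 50.4% of 3422 other genes. Of the starts with under 20% of soft-masked bases, 0 of 30 members and 79.5% of other genes had one. From 20% to 40% the counts were 4 of 81 members (4.94%) and 65.8%, and from 40% to 60% 1 of 10 and 41.7%. Within the CpG class under 0.2, the share was 5.03% in 199 Vmn1r genes, the type 1 vomeronasal receptors, 10.42% in 1008 Olfr genes, the olfactory receptors, and 23.4% in 3383 genes outside the 3 receptor families.

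**Figure D3:**
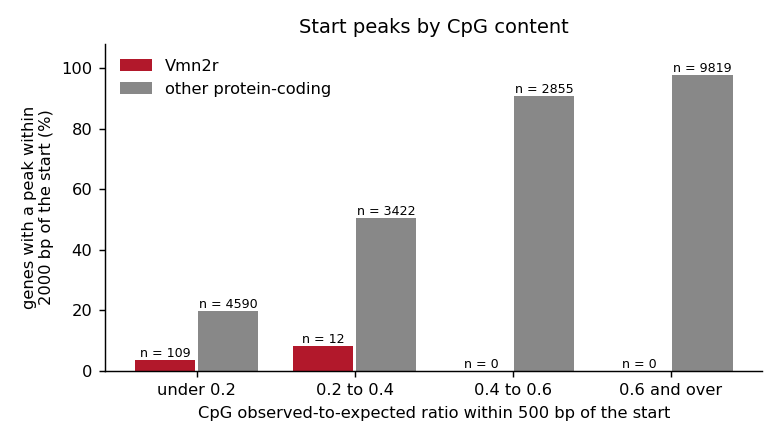
Percent of genes with a peak within 2000 bp of the start (vertical axis) by the CpG observed-to-expected ratio within 500 bp of the start (horizontal axis), for Vmn2r genes in red and other protein-coding genes in grey, with the number of genes above each bar. All 121 members fall in the classes under 0.4, where 3.67% and 8.33% of them have a start peak, beside 19.8% and 50.4% of other genes.

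Sequence duplication was measured as the share of 100-base words, about the length of a read, with another exact copy in the genome. The median share in the start window was 2.05% in members. It was above 50% in 24 members, none of which had a start peak, beside 16.5% of 612 other genes with such a share. It was 0 in 40 members, of which 1 (2.50%), Vmn2r12, had a start peak, beside 78.01% of 14580 other genes. Of the 9543 duplicated start words of members, 8193 (85.9%) had a further copy in, or within 2000 bp of, a Vmn2r gene or pseudogene. That could be the same gene. Words with more than 30 copies were not searched for this and stayed in the total. In the 36 members with a CpG ratio under 0.2 and no duplicated word, no start peak was present, beside 27.9% of 1755 genes outside the receptor families. In this class the related families were closer, with 7 of 60 Vmn1r genes (11.7%) and 56 of 569 Olfr genes (9.84%). Body peaks were listed in 29 of 72 members with under 10% of duplicated body words (21.4 peaks per Mb), in 16 of 26 members between these limits (23.0 peaks per Mb) and in 5 of 23 members with at least 50% (14.8 peaks per Mb). The sequence copied between members in the 129S1 genome was not tested.

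The related receptor families also had a low share at the start. A start peak was present in 12 of 208 Vmn1r genes (5.77%) and in 121 of 1128 Olfr genes (10.7%). Gene bodies differed more, with a peak in 10.58% of Vmn1r and 18.9% of Olfr genes against 41.3% of Vmn2r genes, and the genes differ in length, with medians of 6797 bp in Vmn1r, 5995 bp in Olfr and 27146 bp in Vmn2r. Per Mb of gene body away from protein-coding starts, Vmn1r genes held 16.9 summits, Vmn2r genes 21.8 and Olfr genes 34.1.

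**Figure D4:**
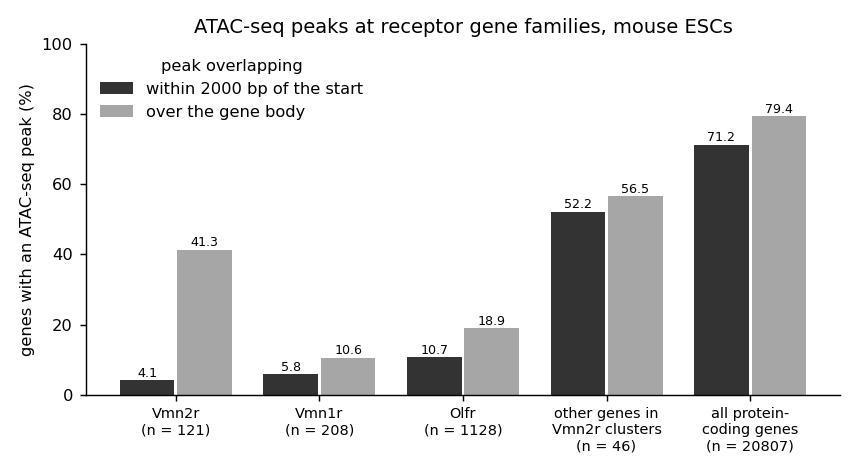
Percent of genes with a peak within 2000 bp of the start (dark bars) and over the gene body (light bars) for Vmn2r, Vmn1r and Olfr genes, other protein-coding genes inside Vmn2r clusters and all protein-coding genes. Vmn2r genes have 4.1% at the start and 41.3% over the body, and all protein-coding genes 71.2% and 79.4%.

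Members lay in 17 clusters, taken as runs of genes with gaps of at most 1 Mb, of which 12 held several members and 5 a single one. The clusters spanned 13.6 Mb and held 381 peak summits, or 28.0 per Mb, which was 0.606 of the density on chromosomes 1 to 19. With clusters joined over gaps of up to 2 Mb, which takes in more sequence between members, this ratio was 0.920. Single chromosomes ranged from 37.3 to 69.7 peaks per Mb. Of the 381 summits, 77 lay in member bodies, 20 in bodies of Vmn2r pseudogenes, 25 within 2000 bp of another protein-coding start and 259 elsewhere.

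The cluster of Vmn2r29 to Vmn2r52 on chromosome 7 (chr7:7231327-10176573) was the largest, with 24 members in 2.95 Mb, and had the lowest density among clusters of several genes, 7.47 peaks per Mb. Its members also had the most duplicated starts, with a median of 75.2% of words in another exact copy, and assembly gaps took 1.70% of it. A start peak was present in 1 of its 24 members, Vmn2r44, and a body peak in 3, beside 71.2% and 79.4% of protein-coding genes. The longest distances to a peak were all found here, 753035 bp at Vmn2r37, 643970 bp at Vmn2r38 and 576887 bp at Vmn2r39. The words of the start window of these genes were duplicated in 83.9%, 62.1% and 77.5%. Reads in High Signal Regions had been removed before peaks were called. The part of read placement and of this removal in the density was not tested. Without this cluster the ratio of densities was 0.729.

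The cluster of Vmn2r84 to Vmn2r87 on chromosome 10 (chr10:130377925-130497396) had the highest density among clusters of several genes, 75.3 peaks per Mb, from 9 summits in 0.119 Mb. Start peaks at Vmn2r85 and Vmn2r86 and body peaks in 3 of its 4 members lay here, the strongest being the Vmn2r85 intron peak and an exon peak of Vmn2r86 (fold enrichment 9.82, 31 fragments, 21.1 to 44.0). The other cluster on chromosome 10, Vmn2r80 to Vmn2r83, had no body peak in its 4 members and 20.3 peaks per Mb. On chromosome 6, 8 of the 9 members from Vmn2r19 to Vmn2r27 had a body peak and the median distance from the start to a peak was 4139 bp. Over all protein-coding genes 79.4% had a body peak, the background for each cluster here. These 9 members were 28205 to 46034 bp long, all above the member median of 27146 bp. Their cluster held 43.3 peaks per Mb, beside 46.2 on chromosomes 1 to 19. On chromosome 17, body peaks were present in 9 of 22 members from Vmn2r90 to Vmn2r110 and in 3 of 8 from Vmn2r111 to Vmn2r117, the strongest at Vmn2r96 in the first and at Vmn2r111 (fold enrichment 3.70, 7 fragments) in the second. In the remaining clusters of chromosomes 5 and 7 the strongest body peaks were those of Vmn2r13, Vmn2r55 (fold enrichment 9.27, 27 fragments), Vmn2r57 and Vmn2r65 (fold enrichment 10.29, 27 fragments). The single genes Vmn2r18, Vmn2r118 and Vmn2r120 had body peaks of at most 6, 10 and 7 fragments, and Vmn2r28 and Vmn2r-ps159 had none.

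**Figure D5:**
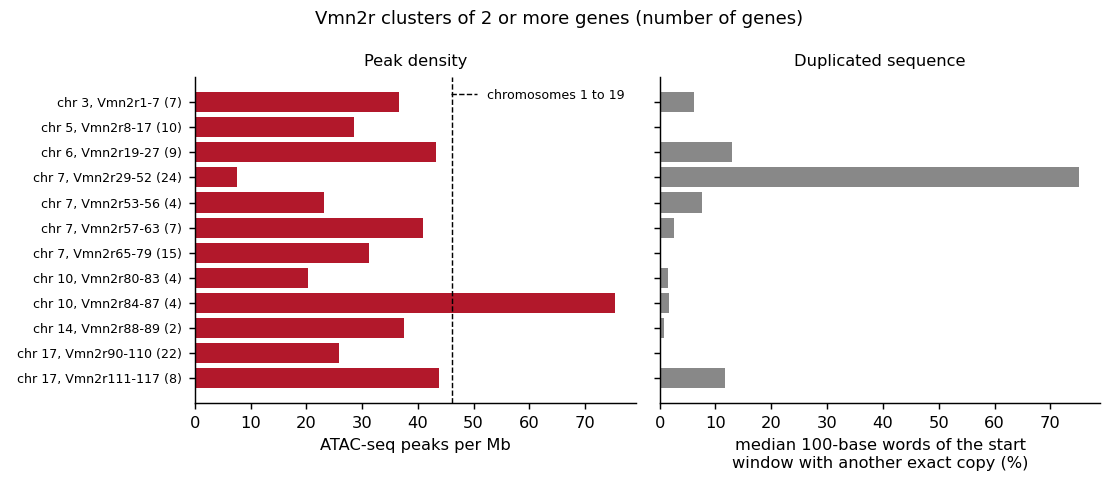
Peaks per Mb (left) and the median share of 100-base words of the start window with another exact copy (right) in the 12 Vmn2r clusters of several genes, with the number of members in brackets. The dashed line is the density on chromosomes 1 to 19, 46.2 peaks per Mb, and the bars reach from 7.47 in the chromosome 7 cluster of Vmn2r29 to Vmn2r52 to 75.3 in the chromosome 10 cluster of Vmn2r84 to Vmn2r87.

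Among Vmn2r1 to Vmn2r7, the subfamily clustered on chromosome 3, no start peak was present and 3 of 7 had a body peak. The shares over all protein-coding genes were 71.2% and 79.4%. Vmn2r3 held 2, the stronger with 65 fragments and the other with 6, and Vmn2r6 held 1 with 6 fragments. Vmn2r7, the longest member, held 4 with 7, 8, 10 and 27 fragments. The nearest peak lay 30479 bp from the start of Vmn2r1, 23746 bp from that of Vmn2r2, 13637 bp from that of Vmn2r3, 13452 bp from that of Vmn2r4, 19546 bp from that of Vmn2r5, 12923 bp from that of Vmn2r6 and 29888 bp from that of Vmn2r7. Duplicated words made up 0% of the start windows of Vmn2r1 and Vmn2r3 and 84.9% of that of Vmn2r5.

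Other genes inside the clusters had start peaks more often. Of 46 protein-coding genes there that are no Vmn2r genes, 24 (52.2%) had a start peak. These comprised 5 of 15 Olfr genes, neither of the 2 Vmn1r genes and 19 of 29 others. All 7 zinc finger genes of the Zfp series in the clusters had one, with fold enrichments from 10.54 at Zfp141 to 16.7 at Zfp40 and 38 to 178 fragments, the latter at Zfp788. These exceeded every start peak of a member, and the CpG ratios at these starts ranged from 0.307 at Zfp977 to 0.650 at Zfp141, all above the highest value in a member, 0.277. Strong start peaks and high CpG ratios did not go together at every gene in the clusters. Gm2381 (ratio 0.187) and Olfr294 (0.154) had start peaks of 43 and 48 fragments. Gm45844 (0.795) and Clcn4 (0.571) had no start peak.

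Genes known from the vomeronasal organ were taken as a list of 30, which also holds genes of the apical neurons, such as Gnai2 and Meis2, and receptors of another family. A start peak was present in 17 of the 30, beside 71.2% of all protein-coding genes. In the signal transduction group 5 of 6 had one, with 54 fragments at Gnao1, 43 at Gnai2 and 34 at Gng8, which encode G protein subunits, 7 at the channel gene Trpc2 and 6 at the chloride channel gene Ano2, and none at Ano1. In the group of receptor partners 3 of 11 had one. B2m had 38 fragments at a fold enrichment of 11.6, H2-M10.4 had 7 and Calr4, a calreticulin relative, had 6. The other H2-M genes, H2-M1, H2-M9, H2-M10.1, H2-M10.2, H2-M10.3, H2-M10.5, H2-M10.6 and H2-M11, which encode non-classical MHC class I heavy chains, had none. Of the formyl peptide receptor genes 2 of 5 had one, Fpr-rs4 with 8 fragments and Fpr-rs6 with 6, but not Fpr3, Fpr-rs3 and Fpr-rs7. Regulators and genes of cell identity had one in 7 of 8, with 53 fragments at Meis2, 43 at Nrp2, 36 at Bcl11b, 28 at Kirrel3, 22 at Robo2, 13 at Tfap2e and 10 at Kirrel2, and none at Omp. The start peaks of the receptors ranged from 6 to 21 fragments and those of the listed genes from 6 to 54.

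Short motifs in the RefSeq promoters were counted on both strands as a description. The TATA box letters TATAAA were present in 26 of 114 members (22.8%) and in 12.9% of all promoters, and the homeodomain core TAATTA in 20 (17.5%) and 4.49%. CCAAT was present in 34 (29.8%) and 38.4%. The GC box GGGCGG was present in no member and in 48.8% of all promoters. Base composition differed as given above, and its part in these shares was not tested. In the 201 bp around the summits of the 80 member peaks, the octamer ATGCAAAT was present in 1, at Vmn2r19, the ESRRB site TCAAGGTCA in 0 and the KLF site GGGTGTGG in 2, at Vmn2r57 and Vmn2r86, beside 2.22%, 0.732% and 3.03% of autosomal peaks.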

How the data were processed

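ATAC-seq was measured in 2 samples of DMSO-treated EHMT2-dTAG mESCs. Per the study's methods and the submitters' processing notes, technical replicates were merged by the authors. Reads were trimmed (BBMap) and aligned to mm10 (STAR 2.7.10), with a read with several best locations written at 1 of them at random. Duplicates (Picard 2.26.0) and reads in High Signal Regions (SAMtools 1.14) were removed (where these regions lie was not tested), fragments were shifted for the Tn5 cut, and peaks were called on both samples merged with MACS2 2.2.6 at a q-value of 0.05. The deposited list holds 116782 peaks with the fold enrichment, a ratio at the summit, the −log10 p-value and q-value, and a score, 10 times the −log10 p-value, that was not used. No library totals were analysed here.

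Fragments over a summit were calculated back from the deposited fold enrichment and −log10 p-value with the MACS2 formulas. A whole number gave back the deposited −log10 p-value within 0.001 for 116779 peaks, and on 20000 simulated peaks 99.995% were recovered. Intervals are exact 95% Poisson intervals for counting error only. Peaks that overlapped 2000 bp on either side of a start, or the gene body, were counted with GENCODE vM21, an earlier release than the study used. RefSeq promoters matched 114 of 121 members, the other 7 being left out. Of these 114, 6 had a peak within 2000 bp of the RefSeq start, the 5 members with a start peak and Vmn2r56. The −log10 q-values start at 1.30, so a gene without a peak is one without a listed peak, not one shown to lack accessibility. Soft-masking was read from GRCm38.p6, and exact copies of 100-base words were counted at steps of 10 bases on both strands of the assembled chromosomes. The list of genes of the vomeronasal organ held 1 further gene that is not reported here. Members, lists and alternatives were chosen with earlier results of these data known. The named members were the 5 with a start peak, the member with the strongest body peak in each cluster, Vmn2r1 to Vmn2r7, and the 3 highest and 3 lowest by distance to a peak and by soft-masked share of the locus. The 3 lowest by distance were Vmn2r69, Vmn2r12 and Vmn2r44. Members named for a strong peak, for both body peaks or for a motif were chosen after their values were seen. Python 3.11.15 with NumPy 2.4.6, pandas 2.3.3, SciPy 1.17.1 and Numba 0.67.0 was used.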

Additional observations from a re-analysis of the deposited data

How the results depend on the processing

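Over 6 results, 27 planned and 6 added alternatives were run, the added ones being chosen after seeing the data. The number of members with a start peak was 0 within 500 bp, 18 within 5000 bp, and 1 with −log10 q-values of 5 or more and of 10 or more, beside 5. The share of members with a start peak divided by that of all protein-coding genes was 0.0580. It was 0 within 500 bp, 0.190 within 5000 bp, 0.0136 and 0.0163 at the −log10 q-values of 5 and 10, and 0.160 among genes with a CpG ratio under 0.3 (added). The number of members with a body peak was 19 (15.7%, beside 68.5% of all protein-coding genes) and 14 (11.6%, beside 57.8%) at those q-values, beside 50 of 121. It was 29 among the 72 members with under 10% of duplicated words (added). That set is smaller, so the lower count is not to be read as a lower share. The ratio of peak densities was 0.920 with clusters joined over 2 Mb, 0.468 in sequence that is not soft-masked and 0.729 without the cluster of Vmn2r29 to Vmn2r52 (added), beside 0.606. The wider joining takes in more sequence between members. The median soft-masked share of 25.7% was 12.2% within 500 bp, 40.1% over the gene body and 46.6% within 10000 bp, beside 9.39%, 22.4% and 27.3% over all protein-coding genes. The other 15 alternatives moved their results by less than 1.5 times for counts, or stayed within the 95% interval of the main value. The cause of a change was not tested. The median number of fragments at starts had no value within 500 bp, where no peak lay. No paired analysis was possible because the peaks were called on both samples merged, and for the same reason neither clone could be left out. Of the 80 member peaks, 53 rested on 8 fragments or fewer (66.3%), beside 47.7% of autosomal peaks.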
